A study of Bos taurus with 10 samples.

Results

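Ribosome assembly factors are the proteins that cut, modify and fold ribosomal RNA and load it with ribosomal proteins. Their transcripts were examined in the isthmic epithelium of the cow oviduct, with and without embryos in the tract. Members were chosen by name from the deposited gene table, through symbols beginning UTP, NOP, NOL, RRP, TSR or RIOK followed by a number, and through RRS1, IMP3, IMP4, LTV1, BMS1, BRIX1, NIP7, PNO1, PES1, WDR12, WDR43, WDR75, GNL2, GNL3, NOB1, FBL, DKC1 and GAR1 with their numbered forms. The rule matched 55 of 24596 features. Of these, 54 had a mean of at least 1 RPKM (reads scaled to transcript length and library total) and were among the 12834 features fitted together. The exception was NOL4, at 0.221 ± 0.0973 RPKM without and 0.339 ± 0.153 RPKM with embryos (SD, n = 5 each). BOP1, which the rule also names, had no row of that name and was not analysed here. By role, 22 members belong to the small subunit processome, 8 to late maturation of the 40S subunit, 17 to assembly of the 60S subunit and 6 to the core of small nucleolar ribonucleoproteins (snoRNPs). NOL3 and NOL4 share only the name: NOL3 is an inhibitor of apoptosis.

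The ribosome of animal cells starts in the nucleolus, where RNA polymerase I makes a long precursor RNA. The processome, built around the U3 snoRNP, forms on the growing precursor and releases the small subunit, while a separate succession of factors folds and trims the large subunit. Box C/D snoRNPs methylate ribosomal RNA and box H/ACA snoRNPs convert uridines to pseudouridine, and the last steps of 40S maturation take place in the cytoplasm. In the oviduct, the epithelium of secretory and ciliated cells makes the fluid in which the early embryo travels.

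The 10 libraries came from heifers (Bos taurus) in 2 groups. Cyclic heifers (5 libraries) had a sham transfer, and pregnant heifers (5 libraries) received 50 presumptive zygotes produced in vitro, an embryo number that no natural bovine pregnancy carries. The labels state no breed, age or time between transfer and collection, and they do not say whether each library came from a separate animal. Statistics therefore describe the spread between libraries. The family was selected on earlier sight of the same differences between these groups, so those given below are a description of these libraries and not independent evidence of a direction.

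The labelled tissue matched its markers. The epithelial adhesion gene EPCAM averaged 365 RPKM without and 329.7 RPKM with embryos, and PAX8, a factor of the Müllerian secretory lineage, 87.5 and 88.2 RPKM. The secretory product OVGP1 averaged 5760 and 2050 RPKM, and FOXJ1, which switches on the genes of motile cilia, 112 and 61.4 RPKM. The leukocyte gene PTPRC averaged 2.22 and 2.99 RPKM. The summed level of 8 secretory markers ran from 5952 to 12100 RPKM in the cyclic libraries and from 1859 to 4484 RPKM in the pregnant ones, without overlap. Most of that sum was OVGP1 and CLU, another secreted product, which averaged 1651 and 500 RPKM. Of the 8 markers, 7 had a log2 difference (pregnant minus cyclic) below 0, as had 6299 of all 12834 features. Only CLU separated the groups, where 2.05% of all features lay wholly lower. PAX8 differed by 0.02 and EPCAM by -0.14. The 9 ciliated markers summed to 655 to 850.4 RPKM and 660.0 to 718 RPKM, which overlap. Yet 7 of these 9 had differences below 0, among them FOXJ1 at -0.83 and DNAI2 at -0.61. In 2 of the 9 the pregnant libraries lay wholly below the cyclic ones and in 1 wholly above, beside 2.05% and 4.91% of all features. The 8 leukocyte markers summed to 25.7 to 36.1 RPKM and 21.3 to 32.8 RPKM, and the 8 stromal markers to 24.8 to 71.1 RPKM and 22.7 to 51.5 RPKM. The endothelial markers (5) summed to 6.96 to 17.3 RPKM and 7.09 to 18.9 RPKM, and of the 4 fitted ones 3 had differences above 0 and 1 below. No marker of these lists was at 0 in every library. In these bulk samples, fewer cells of a type and less RNA per cell cannot be told apart. The part of the marker shifts in the values below was not tested. Reads recovered from the RPKM values put the library totals between 9.71 M (M, mega; cyclic library 4) and 26.1 M (pregnant library 5), and each fitted member rested on 17 to 6152 reads in a library.

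Taken as a family, the assembly factors were higher on average in pregnant than in cyclic heifers, by small amounts and with exceptions. Differences are pregnant minus cyclic on the log2(RPKM + 1) scale, from limma-trend over all fitted features. Of the 54 fitted members, 38 lay above 0 and 16 below, with a median of 0.19, against 0.01 for all 12834 features. None of the 54 passed an adjusted p of 0.05 in limma-trend, where 0.0% of all features passed, nor in voom on the recovered reads. The smallest adjusted p of a member was 0.0934, for LTV1. At an adjusted p under 0.1 there were 4 members, all higher in pregnant heifers (LTV1, NOL11, UTP15 and NOP58), as were 4.47% of all features. At an unadjusted p under 0.05 there were 20 members higher in pregnant heifers (37.0% of them, against 15.7% of all features) and 1 lower (1.85%, against 11.9%). These counts and the median differed in the fits that weighted the libraries. With array weights, which weight libraries by their fit, the median was 0.10, and 15 members were higher and 8 lower at the same limit, beside 24.6% and 23.5% of all features. The array-weight fit also left out the trend of variance with level that limma-trend uses, so weights were not its only change. In voom with quality weights 16 were higher and 8 lower, beside 25.1% and 24.1%.

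In 7 members every pregnant library lay above every cyclic library, where 4.91% of all features did so: NOL11, UTP15 and UTP23 of the processome, LTV1 of late 40S maturation, NOL8 and RRP15 of the 60S subunit, and NOP58 of the box C/D snoRNP. No member showed the opposite arrangement, which 2.05% of all features showed. The library with the lowest cyclic value was cyclic library 4, the shallowest, in 14 of the 20 members at an unadjusted p under 0.05, a share of 70.0% against 75.6% among all 2009 features that met the same limit. With cyclic library 4 left out, 16 members met the limit as higher, beside 12.2% of all features. Without cyclic library 1 the count was 13, beside 14.6%. Calls at an adjusted p of 0.05 in limma depended on cyclic library 3: without it 12 members passed as higher and 1 as lower, beside 9.23% and 8.02% of all features. With array weights 15 passed as higher and 4 as lower (RRP1, RRP12, RRP7A and NOL6), beside 19.0% and 18.3% of all features, and voom with quality weights gave 15 and 5, beside 19.5% and 18.9%. Without pregnant library 4, 0 members passed in limma, beside 0.171% and 0.265% of all features.

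**Figure D1:**
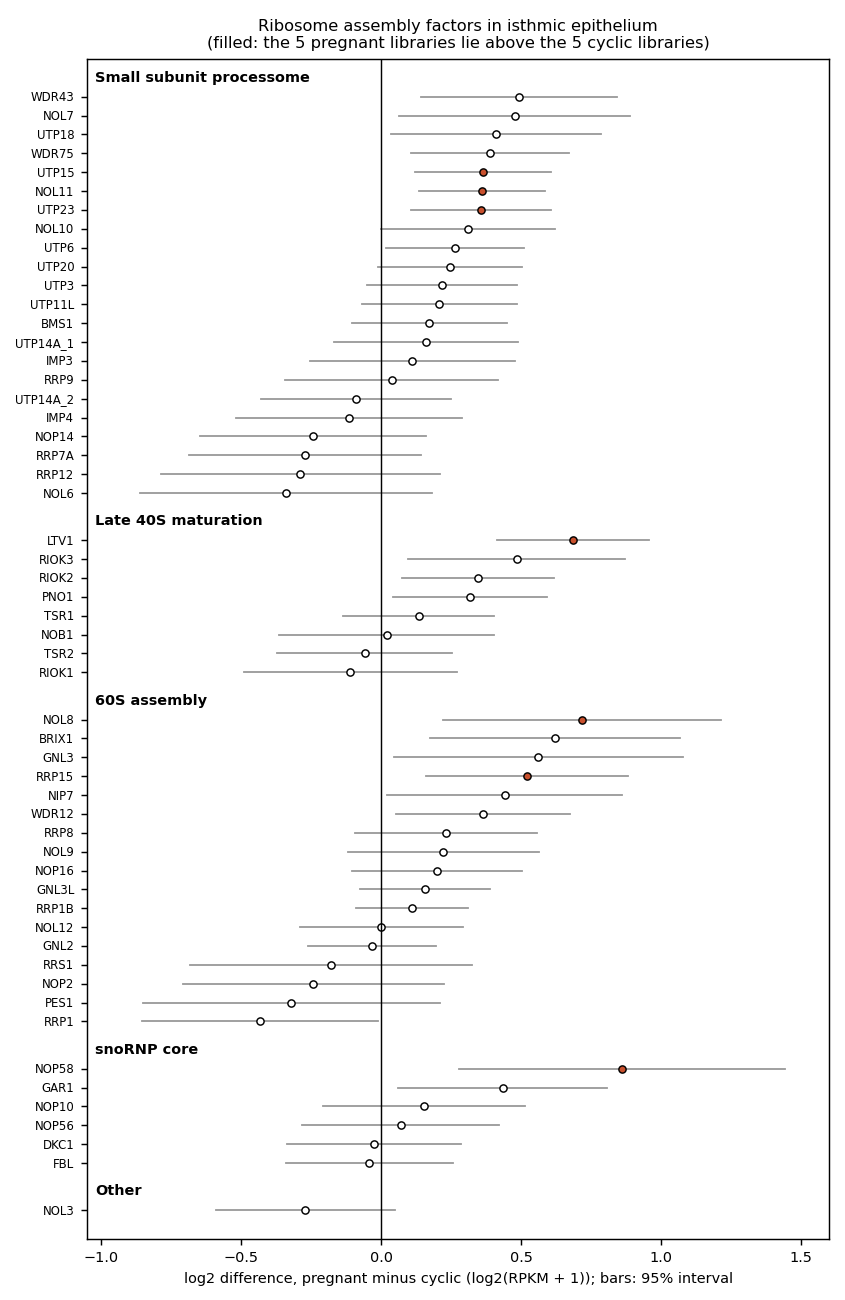
Each point is the log2(RPKM + 1) difference, pregnant minus cyclic, of 1 fitted member, with limma's 95% interval as a bar. Members are ordered within their role, and filled points mark the 7 genes whose 5 pregnant libraries all lay above the 5 cyclic libraries. The 4 main roles each hold genes on both sides of 0, and the points run from -0.43 for RRP1 to 0.86 for NOP58.

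The plot of differences by role shows no role that lay wholly on one side. The median was 0.21 for the processome, 0.23 for late 40S factors, 0.20 for 60S factors and 0.11 for the snoRNP core. The members above 0 were 16 of 22, 6 of 8, 12 of 17 and 4 of 6. As levels per length, the members ranged over more than an order of magnitude around a median of 13.4 RPKM.

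Among processome members, 4 are subunits of t-UTP, the subcomplex that binds the precursor first and is also needed for its transcription. NOL11 stood at 10.8, 13.7, 12.8, 12.8 and 13.8 RPKM in cyclic libraries 1 to 5 and at 18.2, 16.4, 17.4, 15.3 and 16.1 RPKM in pregnant libraries 1 to 5. All pregnant values were above all cyclic values, and the spread was narrow in both groups. The difference was 0.36 (SE 0.10).

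UTP15, another t-UTP subunit, was at 6.15, 6.55, 6.84, 5.11 and 6.77 RPKM in the cyclic libraries and 8.05, 7.69, 9.12, 8.75 and 8.11 RPKM in the pregnant ones. The groups again did not overlap, and the difference was 0.36 (SE 0.11). WDR43 was at 13.1, 13.2, 16.3, 7.99 and 12.8 RPKM in the cyclic libraries and 19.0, 15.5, 18.4, 19.3 and 17.2 RPKM in the pregnant ones. Here cyclic library 3 exceeded pregnant library 2, so the groups overlapped by a single pair, and the difference was 0.49 (SE 0.16). WDR75 differed by 0.39 (SE 0.13), from 9.39 ± 1.25 to 12.6 ± 1.64 RPKM (SD, n = 5 each). All 4 t-UTP members thus lay above 0, at 0.36 to 0.49. The subunits that the name rule did not take, looked up after these values were seen, lay near 0: CIRH1A differed by 0.09 (SE 0.12) and HEATR1 by -0.07 (SE 0.12).

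UTP23, a processome protein that in yeast helps to release the snR30 snoRNA, was at 4.71, 4.49, 4.87, 3.83 and 4.65 RPKM in the cyclic libraries and 5.53, 5.89, 5.92, 7.28 and 5.68 RPKM in the pregnant ones. The groups did not overlap, with pregnant library 4 well above the other pregnant libraries, and the difference was 0.36 (SE 0.11). UTP6 and UTP18, subunits of the UTP-B subcomplex, differed by 0.27 (SE 0.11) and 0.41 (SE 0.17). UTP-B subunits outside the name rule were again mixed, at 0.42 for WDR36, 0.20 for WDR3, -0.10 for PWP2 and -0.32 for TBL3. NOL7, a nucleolar processome protein, averaged 24.8 ± 5.76 RPKM without and 34.7 ± 6.76 RPKM with embryos (SD, n = 5 each), a difference of 0.48 (SE 0.19).

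The processome member with the highest level was UTP14A_2, at 71.6, 79.9, 133, 99.9 and 83.3 RPKM in the cyclic libraries and 85.0, 85.5, 81.4, 83.8 and 93.0 RPKM in the pregnant ones. Cyclic library 3 was far above the rest, the groups overlapped widely, and the difference was -0.09 (SE 0.16). In yeast, its counterpart activates the helicase that strips the U3 snoRNA from the precursor. The table holds a pair of numbered copies, and UTP14A_1 averaged only 1.82 and 2.13 RPKM. No source states how reads were divided between such copies, so both values are uncertain.

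At the other end, NOL6 had the lowest mean of all fitted members. It encodes a processome protein that works in the UTP-C subcomplex together with RRP7A. NOL6 stood at 1.46, 1.65, 0.610, 1.90 and 2.61 RPKM in the cyclic libraries and 1.07, 0.618, 1.13, 2.01 and 0.581 RPKM in the pregnant ones. The groups overlapped throughout, and its relative spread was the widest of the fitted members in both groups (coefficients of variation 44.0% and 53.4%). The difference of -0.34 (SE 0.24) lay beside -0.27 for RRP7A, -0.29 for RRP12 and -0.24 for NOP14. These 4, with IMP4 at -0.11 and UTP14A_2, were the 6 processome members below 0. The other processome members, namely BMS1, IMP3, NOL10, RRP9, UTP3, UTP11L, UTP14A_1 and UTP20, lay between 0.04 for RRP9 and 0.31 for NOL10.

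**Figure D2:**
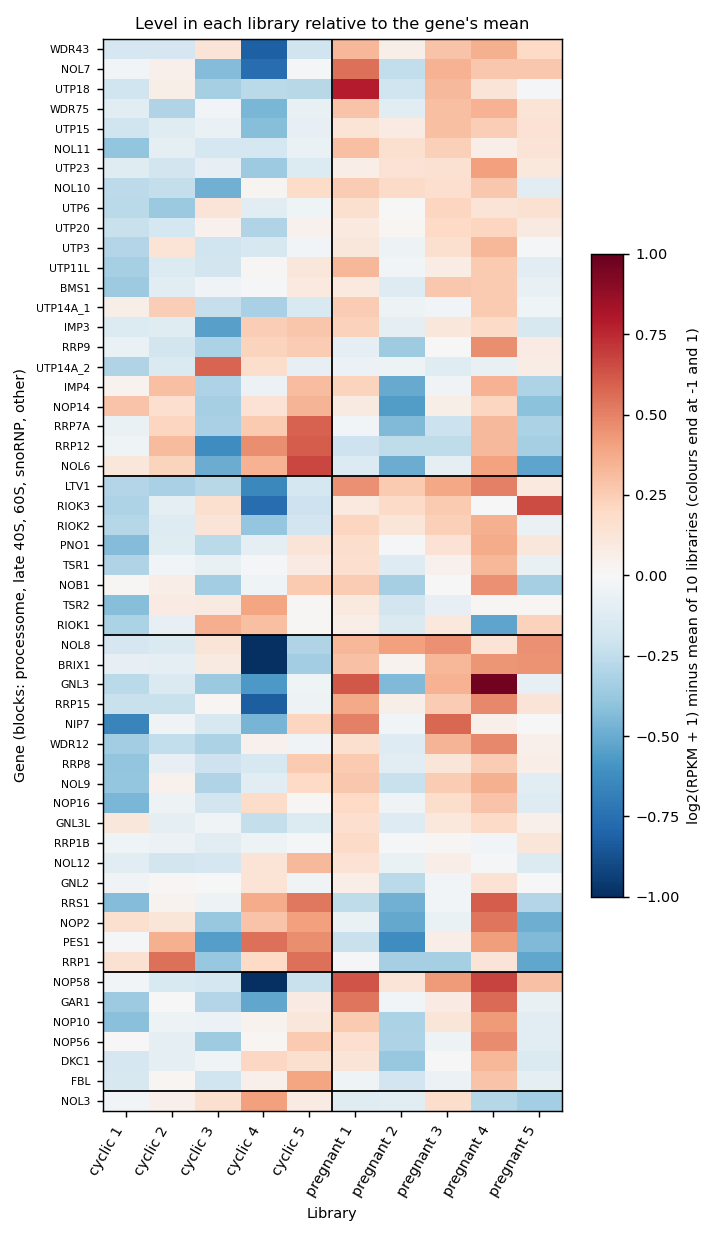
Rows are the 54 fitted members, blocked by role and ordered by difference within a block, and columns are the 10 libraries. Colour gives log2(RPKM + 1) minus the gene's mean over the 10 libraries and ends at -1 and 1. The lower rows of the blocks, such as RRP12, NOL6, PES1 and RRP1, are red in cyclic library 5 and pregnant library 4 and blue in cyclic library 3 and pregnant library 2.

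Late 40S factors gave the member with the smallest p. LTV1, which joins the pre-40S particle at the head of the future subunit and leaves before the subunit can translate, was at 10.4, 10.2, 10.5, 7.93 and 11.4 RPKM in the cyclic libraries and 18.2, 15.8, 17.3, 18.8 and 13.9 RPKM in the pregnant ones. The groups were separated by a gap wider than the range of the 4 upper cyclic values. The difference was 0.68 (SE 0.12), and it stayed between 0.61 and 0.75 with any single library left out.

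The RIO kinases, atypical kinases that act on the pre-40S particle, did not move alike. RIOK2 was at 15.6, 17.5, 21.1, 14.5 and 16.7 RPKM in the cyclic libraries and 22.4, 21.0, 22.9, 24.9 and 18.2 RPKM in the pregnant ones, with cyclic library 3 above pregnant libraries 2 and 5. Its difference was 0.35 (SE 0.12). RIOK3 was at 14.8, 17.3, 20.7, 10.5 and 15.9 RPKM in the cyclic libraries and 19.9, 21.3, 22.4, 18.6 and 29.7 RPKM in the pregnant ones. Cyclic library 3 again reached into the pregnant range, and pregnant library 5 was the highest, for a difference of 0.48 (SE 0.18). RIOK1 showed no such shift, at 13.8, 16.4, 22.7, 21.7 and 17.5 RPKM against 18.3, 15.6, 18.8, 11.8 and 20.7 RPKM. Its groups overlapped almost completely, and the difference was -0.11 (SE 0.17).

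PNO1, the partner of the endonuclease NOB1 that makes the final cut in 18S ribosomal RNA, was at 10.1, 12.8, 11.5, 13.0 and 15.4 RPKM in the cyclic libraries and 16.0, 13.9, 15.6, 18.4 and 15.2 RPKM in the pregnant ones. Cyclic library 5 lay inside the pregnant range and the other cyclic libraries below it, and the difference was 0.32 (SE 0.13). NOB1 itself averaged 15.4 ± 2.44 and 15.9 ± 4.14 RPKM (SD, n = 5 each), a difference of 0.02 (SE 0.18). TSR2, the chaperone of a small subunit protein and the late 40S member with the highest mean, was at 14.3, 20.8, 20.8, 26.0 and 19.7 RPKM in the cyclic libraries and 21.0, 17.1, 18.4, 19.7 and 19.8 RPKM in the pregnant ones. Its pregnant values lay within the cyclic range, with a difference of -0.06 (SE 0.14). TSR1, which resembles a GTPase and sits on the pre-40S particle, differed by 0.13 (SE 0.12).

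**Figure D3:**
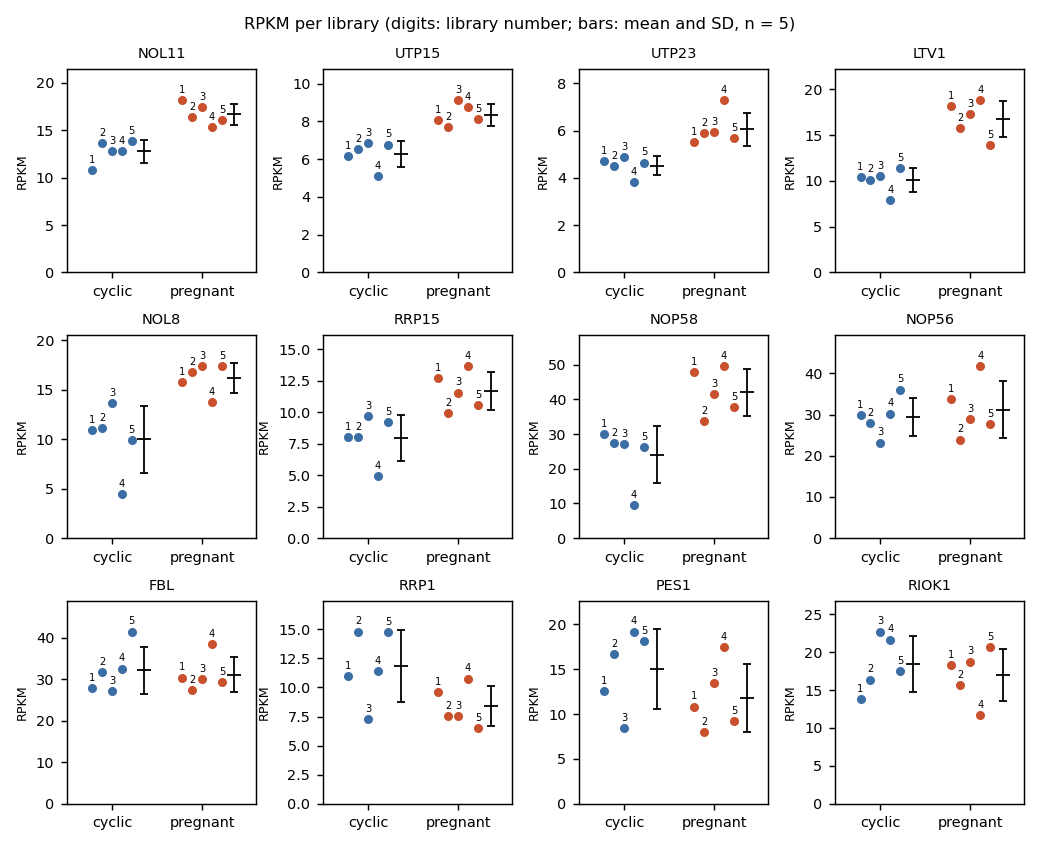
RPKM of 12 members in each library, with the library number above its point and the mean and SD of each group (n = 5) beside it. The first 7 panels are the members whose groups did not overlap. In 6 of them (85.7%) cyclic library 4 is the lowest point, against 79.2% of all 630 features that were wholly higher in the pregnant libraries. NOP56, FBL, RRP1, PES1 and RIOK1 are shown for contrast and overlap between groups.

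In 60S assembly, NOL8 and RRP15 separated the groups. NOL8, a nucleolar protein with an RNA-binding motif, was at 10.9, 11.1, 13.6, 4.42 and 9.88 RPKM in the cyclic libraries and 15.8, 16.8, 17.4, 13.7 and 17.4 RPKM in the pregnant ones. Cyclic library 4 was less than any other value by a wide margin, and pregnant library 4 stood just above cyclic library 3. The difference was 0.72 (SE 0.23) and was 0.48 without cyclic library 4. RRP15, a factor of early 60S particles, was at 8.01, 8.04, 9.66, 4.94 and 9.19 RPKM in the cyclic libraries and 12.7, 9.94, 11.5, 13.7 and 10.5 RPKM in the pregnant ones. Pregnant library 2 lay only slightly above cyclic library 3, and the difference was 0.52 (SE 0.16).

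BRIX1, a factor of large subunit assembly, was at 19.9, 19.8, 22.5, 9.21 and 16.4 RPKM in the cyclic libraries. Its pregnant values were 26.2, 21.7, 26.8, 29.0 and 29.3 RPKM. Cyclic library 3 exceeded pregnant library 2, and cyclic library 4 was the lowest, for a difference of 0.62 (SE 0.20). RRS1, also a factor of large subunit assembly, lay on the other side of 0 at -0.18 (SE 0.23). GNL3 (nucleostemin), a nucleolar GTPase, was at 15.9, 17.4, 14.8, 12.7 and 18.8 RPKM in the cyclic libraries and 30.4, 14.0, 25.0, 38.8 and 18.2 RPKM in the pregnant ones. Pregnant libraries 1, 3 and 4 were above every cyclic library, and the other two lay within the cyclic range. Its difference was 0.56 (SE 0.24), and 0.39 without pregnant library 4. The related GTPase GNL2 averaged 19.6 ± 1.02 and 19.2 ± 2.08 RPKM (SD, n = 5 each), a difference of -0.03 (SE 0.10).

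GNL3L, another gene of that family, had the highest mean of the 60S members, at 75.1, 65.2, 67.7, 58.8 and 62.9 RPKM in the cyclic libraries and 78.3, 63.4, 74.8, 79.4 and 72.0 RPKM in the pregnant ones. The groups overlapped, with cyclic library 1 high and pregnant library 2 low, and the difference was 0.16 (SE 0.11). WDR12 and PES1 are the members of the PeBoW complex, which matures the large subunit RNAs. WDR12 was at 6.17, 6.70, 6.32, 8.40 and 7.90 RPKM in the cyclic libraries and 9.22, 7.35, 10.6, 11.7 and 8.46 RPKM in the pregnant ones. Only pregnant library 2 fell inside the cyclic range, and the difference was 0.36 (SE 0.14). PES1 was at 12.6, 16.7, 8.41, 19.2 and 18.1 RPKM in the cyclic libraries and 10.8, 7.99, 13.4, 17.4 and 9.18 RPKM in the pregnant ones. The groups overlapped through most of their range, and the difference was -0.32 (SE 0.24).

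RRP1 was the member below 0 with the smallest p. Its product works in early 60S particles, and it stood at 10.97, 14.8, 7.29, 11.4 and 14.7 RPKM in the cyclic libraries and 9.62, 7.55, 7.53, 10.8 and 6.51 RPKM in the pregnant ones. Cyclic library 3 lay among the pregnant values, and the other cyclic libraries lay above all of them. The difference was -0.43 (SE 0.19). Its paralog RRP1B had the smallest relative spread of the members among cyclic libraries, with a coefficient of variation of 2.48%, and averaged 15.0 ± 0.373 and 16.3 ± 1.15 RPKM (SD, n = 5 each). Of the remaining 60S members, NIP7 differed by 0.44 (SE 0.19), and NOL9, NOL12, NOP2, NOP16 and RRP8 lay between -0.24 for NOP2, a ribosomal RNA methyltransferase, and 0.23 for RRP8, another one.

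The snoRNP core held the member with the largest difference of the family. NOP58, a scaffold of box C/D snoRNPs, was at 30.1, 27.4, 27.1, 9.63 and 26.1 RPKM in the cyclic libraries and 47.8, 33.6, 41.5, 49.6 and 37.7 RPKM in the pregnant ones. The groups did not overlap, and cyclic library 4 was at less than any other by far. The difference was 0.86 (SE 0.27) and was 0.57 without cyclic library 4. Its partner NOP56, which occupies the same particle, was at 29.9, 27.9, 23.2, 30.3 and 36.1 RPKM in the cyclic libraries and 33.8, 23.9, 28.9, 41.8 and 27.7 RPKM in the pregnant ones. These groups overlapped, with a difference of 0.07 (SE 0.16). The methyltransferase of the particle, FBL (fibrillarin), averaged 32.2 ± 5.69 and 31.1 ± 4.28 RPKM (SD, n = 5 each), a difference of -0.04 (SE 0.14).

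Ratios between partners, chosen after the values were seen and given without a test, set the genes against each other within a library. NOP58 over NOP56 was 1.01, 0.983, 1.17, 0.318 and 0.724 in cyclic and 1.42, 1.41, 1.43, 1.19 and 1.36 in pregnant libraries. The groups did not overlap, but cyclic library 3 and pregnant library 4 nearly met. NOP58 over FBL ran from 0.296 to 1.08 in cyclic and from 1.23 to 1.58 in pregnant libraries, also without overlap. NOP56 over FBL overlapped, at 0.853 to 1.07 and 0.875 to 1.11. RIOK3 over RIOK1 ran from 0.486 to 1.07 and from 1.09 to 1.58, without overlap. WDR12 over PES1 overlapped, at 0.401 to 0.752 and 0.673 to 0.922, and so did RRP1B over RRP1, at 1.01 to 1.99 and 1.42 to 2.62. All other ratios computed overlapped as well. They were GAR1 and NOP10 over DKC1, GNL3 over GNL2, RIOK2 over RIOK1, PNO1 and LTV1 over NOB1, IMP4 over IMP3, WDR43 over RRP12 and UTP18 over UTP6. How often ratios of other gene pairs separate the groups was not examined.

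**Figure D4:**
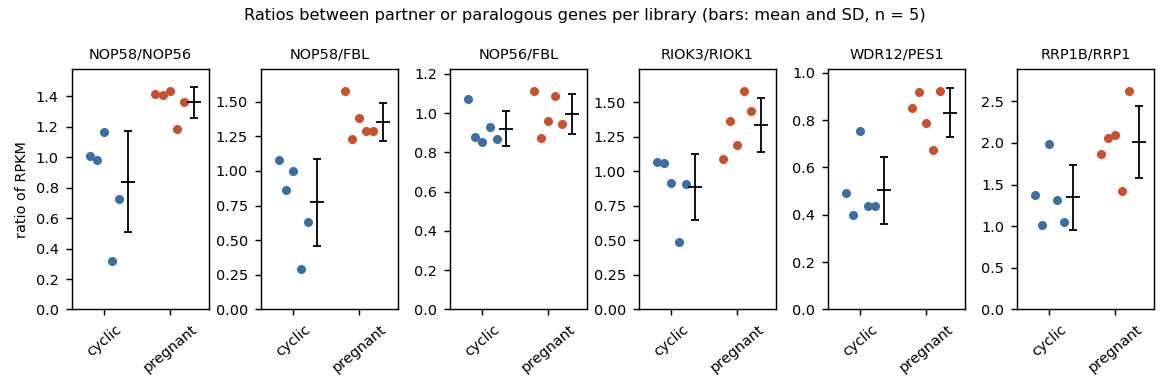
Ratios of RPKM between partner or paralogous genes in each library, with the mean and SD of each group (n = 5). NOP58/NOP56, NOP58/FBL and RIOK3/RIOK1 do not overlap between groups, and NOP56/FBL, WDR12/PES1 and RRP1B/RRP1 do. The other ratios computed are not drawn, and all of them overlap.

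Of the box H/ACA proteins, GAR1 was at 12.4, 16.2, 13.0, 10.96 and 17.1 RPKM in the cyclic libraries and 23.9, 15.8, 17.1, 24.4 and 15.3 RPKM in the pregnant ones. Pregnant libraries 1 and 4 were well above the rest, which overlapped with cyclic libraries 2 and 5, and the difference was 0.43 (SE 0.17). NOP10, a small structural protein of the same particle, was at 2.48, 3.50, 3.46, 3.75 and 4.02 RPKM in the cyclic libraries and 4.59, 2.73, 4.05, 5.24 and 3.31 RPKM in the pregnant ones, overlapping, with a difference of 0.15 (SE 0.17). DKC1 (dyskerin), the pseudouridine synthase, differed by -0.03 (SE 0.14). Outside the ribosome pathway, NOL3 was at 1.49, 1.63, 1.84, 2.36 and 1.69 RPKM in the cyclic libraries and 1.33, 1.36, 1.87, 1.08 and 1.004 RPKM in the pregnant ones, a difference of -0.27 (SE 0.15) with overlapping groups.

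Part of the variation among members ran within groups rather than between them, as the colour map by library shows. Pregnant library 4 was the highest pregnant library for 35 of the 54 members (64.8%, against 33.9% of all features), and pregnant library 2 the lowest for 34 (63.0%, against 26.8%). Cyclic library 5 was the highest cyclic library for 28 members (51.9%, against 17.0%). Averaged over the 54 members and centred on each gene's mean, the level ran from -0.18 in cyclic library 1 to 0.09 in cyclic library 5 and from -0.13 in pregnant library 2 to 0.28 in pregnant library 4, so the groups overlapped. Across all features the same average stayed between -0.04 and 0.04. The lowest cyclic library differed by member: it was library 1 for 18 (33.3%, against 23.3% of all features), library 4 for 17 (31.5%, against 26.3%) and library 3 for 16 (29.6%, against 30.2%). Of the 16 members lowest in cyclic library 3, 9 lay below 0 in the comparison, out of 16 below 0 in all. The matching share over all features was not computed, so this count only describes the members.

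Genes that work beside these members were read from lists drawn up with the earlier results known. Of 73 other assembly factors, 41 lay above 0, with a median of 0.06 that was -0.02 in voom with quality weights. At an unadjusted p under 0.05 in limma-trend there were 20 higher and 5 lower (27.4% and 6.85%, against 15.7% and 11.9% of all features). Differences ran from -0.56 to 1.004. In 10 genes the pregnant libraries lay wholly above the cyclic ones and in 2 wholly below, beside 4.91% and 2.05% of all features. Those of smallest p included ESF1, a nucleolar processome factor that differed by 1.004 (SE 0.23), NMD3, the adaptor that exports the 60S subunit, at 0.52 (SE 0.13), and DCAF13 at 0.47 (SE 0.12). ESF1 stood at 4.94, 5.34, 4.32, 1.61 and 4.83 RPKM in the cyclic libraries and 10.98, 7.08, 8.87, 8.54 and 9.82 RPKM in the pregnant ones, without overlap. As with the members, pregnant library 4 was the highest pregnant library for 46 of these 73 genes (63.0%) and pregnant library 2 the lowest for 40 (54.8%). NPM1 and NCL_1, a copy of nucleolin, are abundant nucleolar proteins and differed by 0.07 (SE 0.17) and 0.21 (SE 0.14). Looked up after values were seen, MPHOSPH10 differed by 0.55 (SE 0.21), NHP2 by 0.34 (SE 0.26) and NHP2L1 by -0.30 (SE 0.16).

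The RNA exosome, which trims precursor RNA, had 10 of 15 genes above 0 with a median of 0.29. At an unadjusted p under 0.05 in limma-trend, 8 were higher and 0 lower (53.3% and 0.0%, against 15.7% and 11.9% of all features). DIS3, its catalytic subunit, averaged 7.84 ± 1.67 and 13.0 ± 1.52 RPKM (SD, n = 5 each), a difference of 0.68 (SE 0.15). The cofactor C1D differed by 0.57 (SE 0.16) and the subunit EXOSC8 by 0.45 (SE 0.13). EXOSC9 differed by 0.36 (SE 0.12). Of 9 snoRNP assembly chaperones, 7 lay above 0, with a median of 0.20, from -0.45 for RUVBL2 to 0.88 for RPAP3, with NAF1 at 0.32 and ZNHIT6 at 0.37 between them. RNA polymerase I and its factors had a median of 0.016, with 12 of 19 genes above 0. That median was -0.0012 with median-ratio scaling and -0.087 in voom with quality weights. TAF1D, a subunit of the promoter selectivity factor, differed by 0.75 (SE 0.29), TAF1B of the same factor by 0.61 (SE 0.22), the shared polymerase subunit POLR2K by 0.41 (SE 0.14) and the terminator-binding TTF1 by 0.31 (SE 0.10). Its largest subunit POLR1A differed by -0.38 (SE 0.20), and the initiation factor RRN3 by 0.20 (SE 0.09).

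Ribosomal proteins, the cargo of the pathway, had 23 of 67 genes above 0, with a median of -0.06 that was 0.07 without cyclic library 3 and 0.01 without pregnant library 3. None was higher at an unadjusted p under 0.05 in limma-trend, where 15.7% of all features were. RPLP0 differed by -0.36 (SE 0.17), RPL13 by -0.34 (SE 0.18) and RPL22L1 by 0.22 (SE 0.11). Within groups, cyclic library 3 was the highest cyclic library for 59 of 67 (88.1%, against 28.0% of all features), and pregnant library 4 the highest pregnant library for 59 (88.1%, against 33.9%). MYC, a transcription factor known to drive ribosome genes, was at 6.10, 4.88, 6.09, 8.08 and 4.05 RPKM in the cyclic libraries and 1.44, 2.07, 2.03, 5.66 and 1.84 RPKM in the pregnant ones. Pregnant library 4 lay within the cyclic range and the other pregnant libraries below it, and the difference was -0.997 (SE 0.26). Among 13 genes of the MYC network and the nucleolar stress response, 4 lay above 0 and the median was -0.23. MDM2, the p53 ubiquitin ligase, differed by 0.52 (SE 0.21), the cell cycle inhibitor CDKN1A by -0.48 (SE 0.18) and the MYC antagonist MXD4 by -0.43 (SE 0.13). The proliferation marker MKI67 averaged 0.327 and 0.267 RPKM, too low to be fitted. The median of 7 fitted genes of dividing cells was -0.15, or 0.18 over those with a mean of at least 5 RPKM. Of the 7, 3 lay above 0 and 4 below. At an unadjusted p under 0.05 in limma-trend, 3 were lower and 0 higher (42.9% and 0.0%, against 11.9% and 15.7% of all features). The lower ones were MCM2 at -0.60 (SE 0.25), MCM4 at -0.46 (SE 0.19) and MCM7 at -0.42 (SE 0.16). CCNB1, at 246.8 and 340.5 RPKM, differed by 0.49 (SE 0.30).

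**Figure D5:**
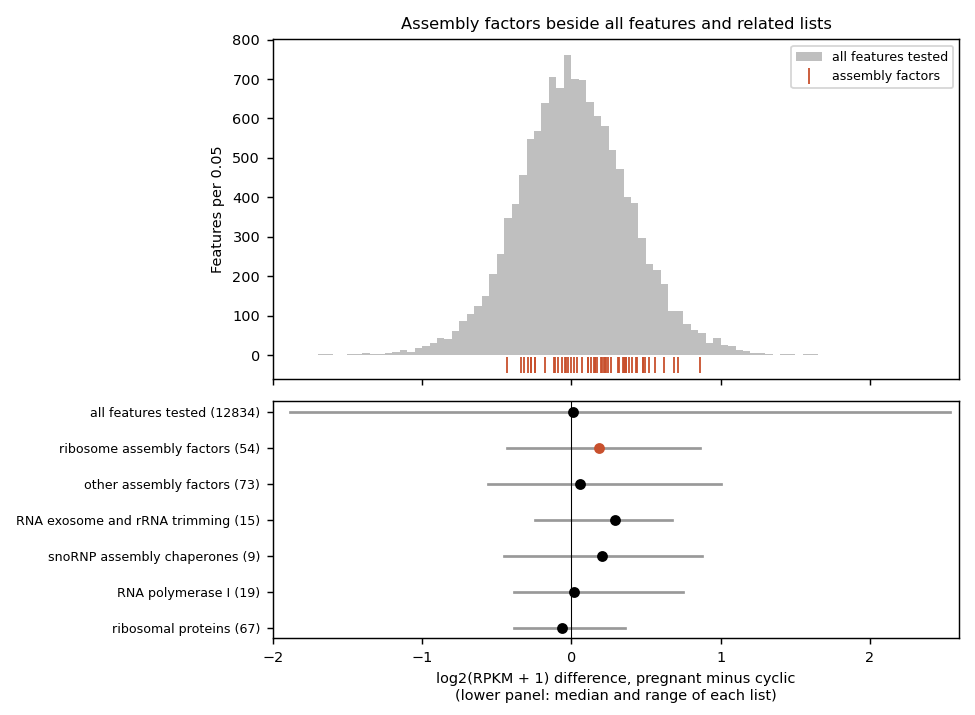
Upper panel: the number of features per 0.05 of log2(RPKM + 1) difference, pregnant minus cyclic, for all features (grey) with the 54 assembly factors as ticks. Lower panel: the median (point) and range (line) of each list, with the number of genes. The medians run from -0.06 for ribosomal proteins to 0.29 for the exosome, and every range crosses 0.

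The plot beside all features sets the members against the whole distribution. The members ran from -0.43 to 0.86, and all features from -1.88 to 2.54. The median coefficient of variation of the members was 18.8% among cyclic and 14.4% among pregnant libraries.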

How the data were processed

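The authors deposited 1 table of normalised values for 24596 features in 10 libraries. Its header names no unit, and the deposited values behaved as RPKM. Per the labels' protocols, libraries were stranded and oligo-dT selected. For the aligner, counter, build and annotation the sources give nothing. Library totals were set from the annotated lengths of 11 mitochondrial genes, and whole reads were recovered in all libraries for 12791 of the 12834 tested features (99.7%, tolerance 0.02 reads, lengths up to 12000 bases) and for 0.0% of 500 jittered features. Mean totals were 16.4 ± 3.79 M reads (cyclic) and 19.8 ± 4.02 M (pregnant; SD over 5 libraries, two-sided exact permutation p = 0.254).

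As the values are normalised, limma-trend (limma 3.58.1, R 4.3.3) served as the main test, fitted to log2(RPKM + 1) of every feature averaging at least 1 RPKM. Group was its single term, and p-values were adjusted by Benjamini-Hochberg over all features. This scale understates changes of low genes. The script was tested on simulated data before use. The members and lists were chosen with earlier results of these data known, and no list was tested. Values in every library were given, by role, for up to 4 members of smallest p and the highest mean, for members whose groups did not overlap and for the lowest means. GNL3, PES1, RIOK1, RRP1 and the ratios were added after their values were seen, as was ESF1's and MYC's detail by library. Of the 55 members, 54 names were in the RefSeq gene table. UBTF was not found under that name. A gene taken by the naming rule from the ribosomal protein list is left out of the text. Alternatives were a pseudocount of 0.1, no filter, a mean of at least 5 RPKM, array weights (without the trend of variance with level), a threshold of 0.1, each library left out, median-ratio scaling and the library number as a block. Voom on recovered reads, without and with quality weights, was chosen after seeing the data. Summaries were made in Python 3.11.15 (pandas 2.3.3, numpy 2.4.6) and drawn with matplotlib 3.10.9.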

Additional observations from a re-analysis of the deposited data

Results flagged for a closer look

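Among the 96 genes examined in 2 groups of 5 libraries each, 13 of 192 groups had a library far from the other 4, by a gap above 0.71 of the group's range. Chance flags about 1 in 20 groups. Of the 108 groups of members, 6 had such a library.

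NOP58 was lowest in cyclic library 4, at 9.627 RPKM against 26.1 to 30.1 RPKM for the rest of its group. GNL2 was highest in the same library, at 21.306 RPKM against 18.8 to 19.4 RPKM. Pregnant library 4 was highest for FBL, at 38.449 RPKM against 27.3 to 30.4 RPKM, for RRP12, at 6.986 RPKM against 4.07 to 4.53 RPKM, and for UTP23, at 7.281 RPKM against 5.53 to 5.92 RPKM. NOL10 was lowest in pregnant library 5, at 11.263 RPKM against 13.9 to 14.9 RPKM.

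Outside the members, cyclic library 4 was lowest for ESF1 at 1.605 RPKM (the others 4.32 to 5.34), for EXOSC8 at 11.738 RPKM (16.4 to 17.7) and for MPHOSPH10, a processome protein, at 3.72 RPKM (7.34 to 8.39). Pregnant library 4 was highest for MYC at 5.657 RPKM (1.44 to 2.07) and for NHP2L1, a protein of the box C/D snoRNP, at 49.233 RPKM (31.0 to 35.5). NPM1 was highest in cyclic library 3 at 289.276 RPKM (167 to 191), and EPCAM in pregnant library 1 at 356.771 RPKM (318 to 326).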

How the results depend on the processing

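The median difference of the members lay above 0 under every alternative run, from 0.10 with array weights to 0.24 without pregnant library 2. Array weights, which give libraries unequal weight (0.313 for cyclic library 3, 3.13 for pregnant library 3), passed 2436 features higher and 2353 lower at an adjusted p of 0.05 (19.0% and 18.3%), of which 15 and 4 were members. With voom and quality weights 2500 and 2421 features passed (19.5% and 18.9%), with 15 and 5 members, and the median for RNA polymerase I was -0.087. Both weighted fits gave 8 members lower at an unadjusted p under 0.05, beside 23.5% of all features with array weights and 24.1% in voom with quality weights. Unweighted voom, the other scaling, both filters and the other pseudocount passed 0 features. A threshold of 0.1 passed 574 features higher and 444 lower (4.47% higher), with 4 members higher, LTV1, NOL11, UTP15 and NOP58. Without filter, 0 members were lower at an unadjusted p under 0.05, beside 9.36% of features. At a mean of at least 5 RPKM the median was -0.12 for the MYC network and 0.18 for proliferation markers. With array weights that of ciliated markers was -0.29. The causes were not tested.

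With single libraries left out, members at an unadjusted p under 0.05 numbered 13 to 22 higher and 0 to 4 lower, beside 11.5% to 20.1% and 7.85% to 17.3% of all features. At an adjusted p of 0.05, 0 to 1184 features were higher and 0 to 1029 lower, and 0 to 12 and 0 to 1 members. The upper ends came without cyclic library 3 (9.23% and 8.02% of features), and without pregnant library 4 there were 22 and 34 features (0.171% and 0.265%) and 0 members. List medians ran from -0.25 to -0.12 for the MYC network and from -0.29 to -0.094 for ciliated markers.

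The labels do not say whether the library numbers pair the samples. Same-numbered libraries had correlations of -0.34 to 0.28 between their deviations from the group means. For number 4 the value was 0.284, where cyclic library 4 reached at most 0.007 with a pregnant library of another number. For every other number, a library of another number correlated more. Such correlations cannot show that the samples were unpaired. With the number as a replicate block, 0 features passed, 16 members were higher and 0 lower at an unadjusted p under 0.05, beside 15.5% and 11.1% of all features. Of 963 single-gene values under alternatives, 960 moved by less than the SD between libraries. RRP1, NOL6 and UTP14A_1 moved by more in voom with quality weights, to -0.84, -1.07 and -0.08. Leaving out 1 of 5 libraries cannot move a difference that far, and the filters and the block leave it unchanged. The count of 960 therefore does not measure stability. Signs changed with array weights for 6 members of small difference (NOB1, NOP56, RIOK1, RRP9, UTP14A_1 and UTP14A_2). The comparison of promoter motifs was not run.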
